A study of Homo sapiens with 6 samples.

Results

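The genes described here encode the subunits of integrins and the chains of laminins. Membership was set by a rule on symbol and gene type. Members are protein-coding genes with the symbol of an integrin alpha or beta subunit or of a laminin alpha, beta or gamma chain. This choice was made with earlier results of these data known. The rule found 36 of the 30987 genes in the count table, with 25 integrin genes (17 alpha and 8 beta) and 11 laminin genes (4 alpha, 4 beta and 3 gamma). HepG2 is an established human line grown from a hepatic cancer. Its cells received either siRNA3, which targets PAIP1 (siPAIP1), or a control siRNA with no target (Ctrl), both with a lipid reagent, and were collected 48 h later. PAIP1 encodes a protein that binds the poly(A)-binding protein and acts in translation and mRNA decay. Each group had 3 biological replicates, and 1 siRNA in 1 cell line stands for the knockdown. Libraries were made from poly(A) RNA, and the deposited totals were 29313211 to 34157368 counts in siPAIP1 and 31045623 to 34659866 counts in Ctrl.

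Integrins are receptors made of 1 alpha and 1 beta subunit that span the cell membrane. Outside the cell they bind matrix proteins or proteins of other cells, and inside it they are tied to actin through talin, kindlin and other adaptors. Laminins are secreted trimers of 1 alpha, 1 beta and 1 gamma chain that build the sheet of basement membranes, where nidogen and perlecan link them to collagen IV. Epithelial cells hold on to laminin through integrins with ITGA3 or ITGA6. In the liver, hepatocytes normally face a sparse matrix without a full basement membrane, while bile ducts and vessels have one.

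The 2 siRNAs are given here because they are the only difference in treatment between the groups. The guide (antisense) strands are written 5′ to 3′ with the seed, bases 2 to 8, in capitals and a 2-base DNA overhang at the end.
siRNA3 against PAIP1: uAUCAUCCaaguauggauctt
control siRNA: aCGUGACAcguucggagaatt
The other strand of siRNA3 matches the coding sequence of PAIP1 across the junction of exons 10 and 11 of its canonical transcript. On the minus strand of GRCh38 the match covers chr5:43529786-43529790 and chr5:43527456-43527469, of 5 and 14 bases. PAIP1 had 27.8, 21.8 and 20.1 CPM in siPAIP1 replicates 1 to 3, against 94.6, 81.5 and 90.0 CPM in Ctrl replicates 1 to 3. CPM are counts per 1000000 of the library total after TMM scaling. The fitted log2 fold change was −1.93 ± 0.13 (SE, adjusted p = 0.000918, edgeR quasi-likelihood test), so siPAIP1 was at 26.2% of Ctrl.

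siPAIP1 replicate 3 stood apart from the other libraries. In it, 1094 of the 15528 tested genes (7.05%) lay over 2-fold above the mean of siPAIP1 replicates 1 and 2. Of the 22 tested members, 3 did so, namely LAMA5, LAMB2 and ITGB4, and for this reason values are also given without this library. Ctrl replicate 2 deviated from its group in part alike (correlation of the deviations 0.39 over 15528 genes), and it was 1.36-fold above the mean of the other Ctrl libraries for LAMA5. All 10 hepatic markers checked, among them ALB, AFP, APOA1 and HNF4A, were expressed, with summed levels of 8128 to 10191 CPM in siPAIP1 and 11857 to 12732 CPM in Ctrl. By the test 5 of the 10 were lower in siPAIP1 (50%), beside 6.2% of all genes. Some defining markers of other cells were at or near 0: the leukocyte gene PTPRC had at most 1 count in any library, the endothelial genes CDH5 and TEK at most 2, and PDGFRA and LUM of stellate cells and fibroblasts at most 1. Other listed markers were not. The leukocyte list summed to 384 to 512 CPM in siPAIP1 and 519 to 574 CPM in Ctrl. For the bile duct list the sums were 1462 to 1539 CPM in siPAIP1 and 1366 to 1598 CPM in Ctrl. The endothelial list was low but not at 0, with 3.12 to 5.94 CPM in siPAIP1 and 4.04 to 5.25 CPM in Ctrl. Of its genes 3 were tested, and 0 were called higher or lower. The smooth muscle actin gene ACTA2, from the stellate cell and fibroblast list, was called higher in siPAIP1, and the summed level of that list was 122 to 152 CPM in siPAIP1 and 84.9 to 90.9 CPM in Ctrl.

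Which integrins and laminins did the line express? Levels of different genes were compared as FPKM, the authors' fragments per kilobase of exon scaled to the mapped fragments, which adjust for gene length. A mean of 1 FPKM or more in either group was reached by 15 of the 36 members. ITGB1, the beta subunit shared by most matrix-binding integrins, was the most abundant member, with 103 ± 14.8 FPKM in siPAIP1 and 92.8 ± 5.53 FPKM in Ctrl (SD, n = 3 each). By group mean ITGB5, a partner of ITGAV, followed with 35.1 ± 1.50 FPKM in siPAIP1 and 30.2 ± 1.42 FPKM in Ctrl (SD, n = 3 each). This rank did not hold in siPAIP1 replicate 3, where LAMB1 had 42.2 and LAMA5 37.8 FPKM beside 34.8 FPKM for ITGB5. The leading laminin genes in Ctrl were LAMB1, LAMC1, LAMA5 and LAMB2, and the leading alpha subunits were ITGA6, ITGAV and ITGA2. Library values overlapped between LAMC1 and LAMA5 and between LAMA5 and LAMB2 within Ctrl, so the order of these neighbours is not resolved there.

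**Figure D1:**
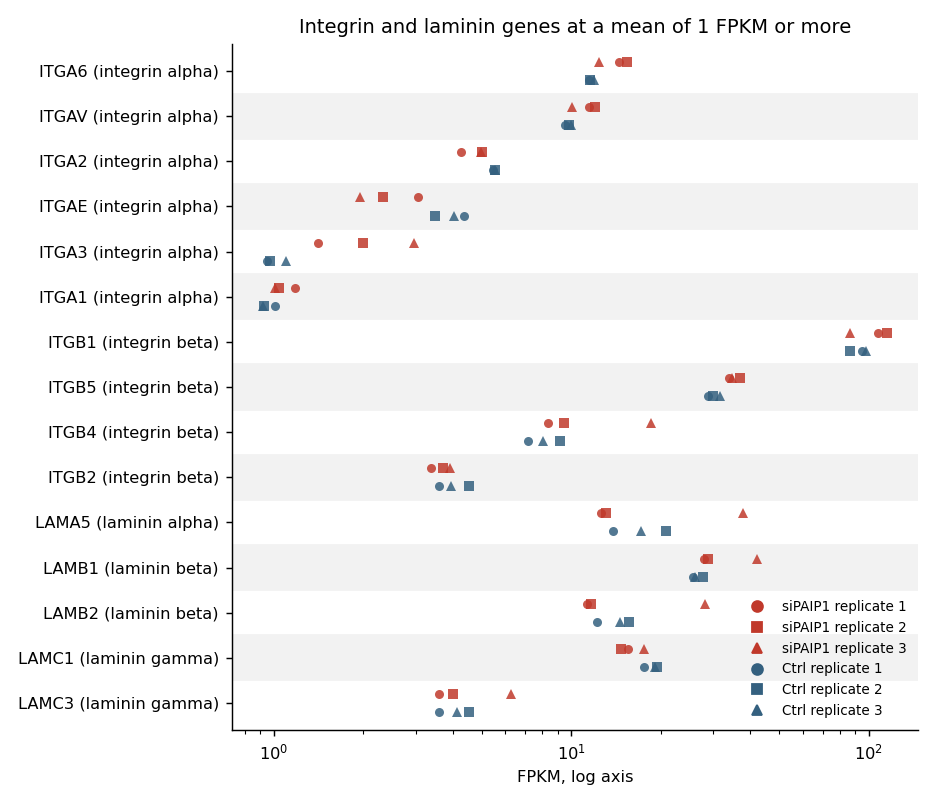
FPKM (log axis) of the 15 members with a mean of 1 FPKM or more in either group, with 1 point per library, siPAIP1 in red above Ctrl in blue. ITGB1 lies between 86.6 and 115 FPKM in all 6 libraries, and the triangle of siPAIP1 replicate 3 lies far to the right for LAMA5, LAMB2 and ITGB4.

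The other 14 members did not pass the filter on low counts, and none of them exceeded 10 counts in any library. They included ITGA4, ITGA7, ITGA8, ITGA9, ITGA11, ITGAM, ITGAX, ITGB3, ITGB6, ITGB8, LAMA1, LAMA2 and LAMB4, and the FPKM of the 14 members ranged up to 0.06. ITGB3, the platelet partner of ITGA2B, had 0, 3 and 0 counts in siPAIP1 and 3, 5 and 2 counts in Ctrl. At this depth such counts do not tell low expression from none. ITGAD and LAMA4 were not analysed here.

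Between the groups, 22 members were tested. ITGA10 was higher in siPAIP1, and ITGAL, ITGAE and LAMA3 were lower, at an adjusted p under 0.05 by edgeR's quasi-likelihood test with Benjamini-Hochberg adjustment over all 15528 genes. Among all genes 5.68% were called higher, 6.2% lower and 11.9% either way, and among the 22 members 4 were called (18.2%), which is near that background given their number. With a fold of at least 2 as well, ITGA10 and ITGAL were left, where the rule was met by 1.11% of all genes in the higher and 1.1% in the lower direction. At an unadjusted p under 0.05 there were 10 of the 22 members, beside 4436 of all 15528 tested genes. The values of siPAIP1 and Ctrl did not overlap for 10 members (45.5%), 5 higher and 5 lower, against 36.6% of all tested genes (19% higher and 17.6% lower). The median log2 fold change of the 22 members was 0.17, beside 0.03 over all tested genes. Without siPAIP1 replicate 3 the medians were −0.11 for the members and −0.00056 for all genes.

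**Figure D2:**
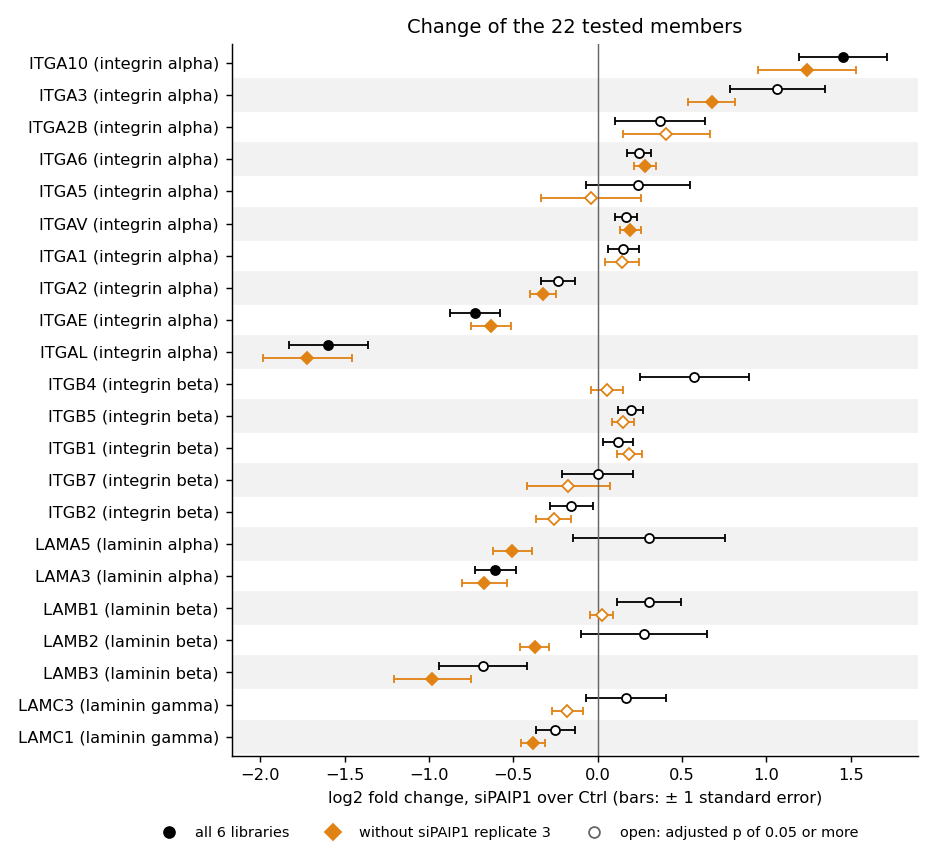
Log2 fold change of siPAIP1 over Ctrl for the 22 tested members, with standard errors, from all 6 libraries (black circles) and without siPAIP1 replicate 3 (orange diamonds). Filled symbols have an adjusted p under 0.05, which 4 members reach with all 6 libraries and 12 without that library, and LAMA5, LAMB2, LAMC3 and ITGA5 change sign.

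The largest fall was that of ITGAL, the alpha subunit of the leukocyte integrin LFA-1, which binds ICAM proteins. ITGAL had 0.758, 0.601 and 0.863 CPM in siPAIP1, against 2.22, 2.68 and 1.80 CPM in Ctrl, and the highest siPAIP1 value was under the lowest Ctrl value. The log2 fold change was −1.60 ± 0.24 (SE, adjusted p = 0.00766). It was the 1 member called whichever single library was left out, with log2 fold changes of −1.73 to −1.45. The level was low throughout, at 0.11 to 0.14 FPKM in siPAIP1 and 0.32 to 0.46 FPKM in Ctrl. ITGAL (chr16:30472658-30523567, GRCh38, plus strand) is overlapped by antisense non-coding genes that share exonic bases with it, and those had 3 to 15 counts in siPAIP1 and 2 to 6 counts in Ctrl. Whether the counting used strand is not given in the sources used here.

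ITGAE, which pairs with ITGB7 and binds E-cadherin on epithelial cells, had 12.5, 9.49 and 8.79 CPM in siPAIP1, against 18.7, 15.1 and 17.1 CPM in Ctrl. The groups did not overlap, and the log2 fold change was −0.73 ± 0.15 (SE, adjusted p = 0.023). Its partner ITGB7 was scarce, with 1.08, 1.03 and 1.46 CPM in siPAIP1 and 1.17, 1.15 and 1.25 CPM in Ctrl (log2 fold change −0.00089 ± 0.21, SE). ITGB7 shares 1881 exonic bases with ZNF740 on the other strand. ZNF740 had 668, 657 and 837 counts in siPAIP1 and 641, 684 and 589 counts in Ctrl. ITGAE (chr17:3714628-3801188, minus strand) surrounds the kinase gene HASPIN, listed as GSG2 on the other strand, with which it shares 427 exonic bases. That gene had 216, 174 and 205 counts in siPAIP1 and 154, 138 and 153 counts in Ctrl, a difference in the other direction (log2 fold change 0.39, adjusted p = 0.145).

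The remaining leukocyte integrin of note was ITGB2, the beta subunit that pairs with ITGAL, ITGAM and ITGAX. By FPKM ITGB2 was more abundant than any of these partners (3.38 to 3.93 FPKM in siPAIP1 and 3.60 to 4.52 FPKM in Ctrl). It had 12.6, 13.7 and 16.0 CPM in siPAIP1, against 14.1, 17.8 and 15.2 CPM in Ctrl. These ranges overlapped, and the log2 fold change was −0.16 ± 0.13 (SE, adjusted p = 0.444). Its antisense gene ITGB2-AS1, named after its values were seen, went the other way, with 18, 29 and 31 counts in siPAIP1 against 10, 9 and 7 counts in Ctrl (log2 fold change 1.55, adjusted p = 0.0281). ITGB2 shares 303 exonic bases with ITGB2-AS1. Among the 11 listed leukocyte markers 9 were in the table. Nearly all of their summed level came from the lysozyme gene LYZ. PTPRC, CSF1R and SPI1 had at most 3 counts in any library, and CD8A was called higher in siPAIP1 (log2 fold change 0.64, adjusted p = 0.0452). Of the 6 tested leukocyte markers 1 was called higher and 0 lower (median log2 fold change −0.24), beside 5.68% and 6.2% of all genes. ITGAL and ITGAE were called lower. The part of these markers in the result was not tested.

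Of the 3 tested alpha subunits of collagen receptors, ITGA10 alone was called. ITGA10, whose integrin binds collagens and is best known from cartilage, had 1.17, 1.43 and 1.92 CPM in siPAIP1, against 0.599, 0.483 and 0.558 CPM in Ctrl, and the groups did not overlap. The log2 fold change was 1.45 ± 0.26 (SE, adjusted p = 0.0147), at a level of 0.21 to 0.31 FPKM in siPAIP1 and 0.08 to 0.10 FPKM in Ctrl. ITGA10 lies at chr1:145891208-145910111 on the minus strand, and the antisense gene that overlaps it had at most 1 count in any library. ITGA2, the more abundant collagen receptor of epithelial cells, had 35.7, 41.7 and 45.8 CPM in siPAIP1, against 48.1, 49.0 and 48.0 CPM in Ctrl. All siPAIP1 values of ITGA2 lay below all Ctrl values, but the test was not passed (log2 fold change −0.24 ± 0.10, SE, adjusted p = 0.169). Without siPAIP1 replicate 3 it was −0.32 ± 0.075 (SE, adjusted p = 0.00491). ITGA1, which prefers collagen IV, had 13.5, 11.8 and 12.7 CPM in siPAIP1 and 12.1, 11.2 and 10.9 CPM in Ctrl, with overlapping ranges and a log2 fold change of 0.15 ± 0.093 (SE, adjusted p = 0.313). ITGA1 shares 499 exonic bases with PELO on the same strand. PELO had 912, 962 and 700 counts in siPAIP1 and 1067, 963 and 982 counts in Ctrl.

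Of the integrin subunits that bind laminin, ITGA3 and ITGA6 did not pass the test with all 6 libraries and were called higher without siPAIP1 replicate 3. ITGA3, whose integrin binds laminins with LAMA5 or LAMA3, had 7.32, 10.2 and 17.0 CPM in siPAIP1, against 5.21, 5.34 and 5.91 CPM in Ctrl. The groups did not overlap, the siPAIP1 values spread over more than 2-fold, and the log2 fold change was 1.07 ± 0.28 (SE, adjusted p = 0.0511). Without siPAIP1 replicate 3 it was 0.68 ± 0.14 (SE, adjusted p = 0.00202). ITGA6 was the leading alpha subunit, with 14.5, 15.4 and 12.4 FPKM in siPAIP1 and 11.5, 11.5 and 11.9 FPKM in Ctrl. In CPM it had 89.8, 94.9 and 84.4 in siPAIP1, against 75.1, 75.9 and 76.4 in Ctrl, again without overlap, and the log2 fold change was 0.24 ± 0.07 (SE, adjusted p = 0.0666). For ITGA6 the value without siPAIP1 replicate 3 was 0.28 ± 0.064 (SE, adjusted p = 0.00432).

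ITGB4 pairs with ITGA6 in hemidesmosomes, the junctions that tie epithelial cells to laminin and keratin. ITGB4 had 54.8, 61.7 and 133 CPM in siPAIP1, against 49.4, 64.0 and 54.5 CPM in Ctrl, so 1 siPAIP1 library was high and the others lay within the Ctrl range. Its log2 fold change of 0.57 ± 0.32 (SE, adjusted p = 0.275) was 0.055 ± 0.092 (SE, adjusted p = 0.715) without siPAIP1 replicate 3. The ratio of ITGB4 to ITGA6 FPKM was 0.576, 0.614 and 1.49 in siPAIP1 and 0.620, 0.797 and 0.673 in Ctrl.

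ITGAV, the alpha subunit of the vitronectin and RGD receptors, had 88.3, 91.5 and 84.5 CPM in siPAIP1, against 76.6, 79.7 and 79.0 CPM in Ctrl. ITGAV did not overlap between the groups, and its difference was small (log2 fold change 0.17 ± 0.066, SE, adjusted p = 0.148, and 0.19 ± 0.064, adjusted p = 0.0362, without siPAIP1 replicate 3). Its partner ITGB5 had 157, 170 and 177 CPM in siPAIP1, against 141, 148 and 152 CPM in Ctrl, also without overlap (log2 fold change 0.19 ± 0.075, SE, adjusted p = 0.14). ITGB1 had 450, 478 and 397 CPM in siPAIP1 and 415, 384 and 420 CPM in Ctrl, with overlapping ranges (log2 fold change 0.12 ± 0.09, SE, adjusted p = 0.411). ITGB1 made up 60.0% to 70.1% of the summed FPKM of the beta subunits in siPAIP1 and 66.3% to 70.3% in Ctrl. The fibronectin receptor subunit ITGA5 and the platelet subunit ITGA2B stayed under 1 FPKM in every library. ITGA5 ranged from 0.20 to 0.30 FPKM in siPAIP1 and from 0.16 to 0.26 FPKM in Ctrl, and ITGA2B from 0.46 to 0.74 FPKM in siPAIP1 and from 0.33 to 0.57 FPKM in Ctrl. Neither passed the test (adjusted p = 0.639 for ITGA5 and 0.39 for ITGA2B).

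**Figure D3:**
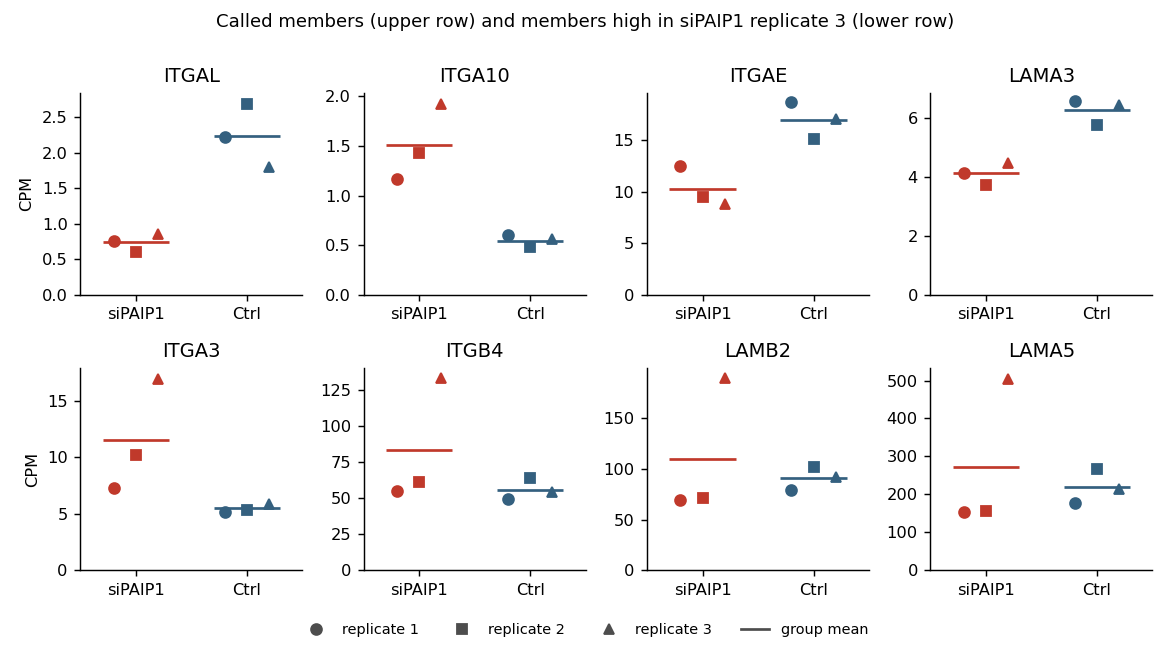
CPM per library of the 4 called members (upper row) and of 4 members with high values in siPAIP1 replicate 3 (lower row), siPAIP1 left of Ctrl, with the replicate number as the symbol and a line at each group mean; each axis starts at 0. In the upper row the groups are apart in all 6 libraries, and in the lower row LAMA5 reaches 504 CPM in siPAIP1 replicate 3 beside 153 and 157 CPM in the other siPAIP1 libraries.

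Laminin alpha chains were nearly all LAMA5, the broadly expressed chain of mature epithelia, which made up 97.1% to 99.1% of the alpha-chain FPKM in siPAIP1 and 96.3% to 97.8% in Ctrl. LAMA5 had 153, 157 and 504 CPM in siPAIP1, against 177, 267 and 215 CPM in Ctrl. siPAIP1 replicate 3 was the highest of the 6 libraries and siPAIP1 replicates 1 and 2 were the lowest. The log2 fold change was 0.30 ± 0.45 (SE, adjusted p = 0.686) with all libraries, and −0.51 ± 0.12 (SE, adjusted p = 0.00493) without siPAIP1 replicate 3, so its direction turned on 1 library. LAMA5 shares 244 exonic bases with ADRM1 on the other strand, a proteasome receptor gene with 9223 to 11339 counts in siPAIP1 and 10311 to 11080 counts in Ctrl.

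LAMA3, an epithelial chain of the laminin under hemidesmosomes, had 4.14, 3.75 and 4.48 CPM in siPAIP1, against 6.59, 5.76 and 6.46 CPM in Ctrl. The groups did not overlap, and the log2 fold change was −0.61 ± 0.12 (SE, adjusted p = 0.0219). In FPKM this was 0.32 to 0.35 in siPAIP1 and 0.46 to 0.53 in Ctrl. Of 5 markers of bile duct epithelium, which lies on laminin, 4 were tested and KRT7 was called lower in siPAIP1 (log2 fold change −1.24, adjusted p = 0.0126). That is 25% of those tested, beside 6.2% of all genes. The part of these markers in the fall of LAMA3 was not tested. LAMB3, its partner beta chain, named after its values were seen, had 1.25, 0.972 and 1.89 CPM in siPAIP1, against 2.25, 2.38 and 1.94 CPM in Ctrl. LAMB3 lay lower in all 3 siPAIP1 libraries but did not pass the test (log2 fold change −0.68 ± 0.26, SE, adjusted p = 0.138). Without siPAIP1 replicate 3 it was −0.98 ± 0.23 (SE, adjusted p = 0.00492).

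The start regions of LAMA3 and LAMB3 are shown because the trimer partners LAMA3, which was called lower, and LAMB3, which did not pass the test (adjusted p = 0.138), each have a window that holds TGANTCA (N is any base), the motif of AP-1 factors, in capitals. The sequences are from RefSeq (GRCh38.p14), from 250 bases before to 50 bases after an annotated start, 5′ to 3′ on the gene's strand.
LAMA3, chr18:23872770-23873069, plus strand: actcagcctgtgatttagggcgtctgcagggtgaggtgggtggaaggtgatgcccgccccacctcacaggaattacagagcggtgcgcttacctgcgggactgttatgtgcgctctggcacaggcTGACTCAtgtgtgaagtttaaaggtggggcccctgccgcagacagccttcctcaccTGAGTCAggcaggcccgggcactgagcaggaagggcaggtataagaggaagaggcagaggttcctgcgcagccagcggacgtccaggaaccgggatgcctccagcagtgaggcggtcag
LAMB3, chr1:209651325-209651624, minus strand: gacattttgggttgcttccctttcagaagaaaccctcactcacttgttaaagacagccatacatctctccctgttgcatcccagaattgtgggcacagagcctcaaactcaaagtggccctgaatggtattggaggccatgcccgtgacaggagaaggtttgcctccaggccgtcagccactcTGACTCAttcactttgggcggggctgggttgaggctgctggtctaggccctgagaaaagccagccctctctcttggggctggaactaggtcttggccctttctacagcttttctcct
The LAMA3 window has 2 matches, which begin 125 and 69 bases before the start, and it belongs to an internal start within the gene (chr18:23689453-23956222). The LAMB3 window has 1 match, 67 bases before the start. It was picked for that match, and the windows of the other 2 RefSeq starts of LAMB3, which lie farther upstream, hold 0 matches. The motif reads the same on both strands. It occurs in 7.71% of the 35116 windows of this length searched, and in 0.515% at least 2 times. The 25 members with an entry have 32 windows, and ITGA5, LAMA3 and LAMB3 hold the motif in 1 window each. ITGA5 did not pass the test. A match is a description of the letters and not evidence of binding.

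Among the beta chains, LAMB1 had 184, 189 and 306 CPM in siPAIP1, against 178, 194 and 178 CPM in Ctrl. Again only siPAIP1 replicate 3 lay outside the Ctrl range, and the log2 fold change of 0.31 ± 0.19 (SE, adjusted p = 0.323) was 0.024 ± 0.068 (SE, adjusted p = 0.841) without it. LAMB1 shares 300 exonic bases with DLD on the other strand. DLD had 2971, 3090 and 2133 counts in siPAIP1 and 2757, 2453 and 2277 counts in Ctrl. LAMB2, the beta chain of mature basement membranes, had 69.3, 70.9 and 189 CPM in siPAIP1, against 78.8, 101 and 92.0 CPM in Ctrl. Its log2 fold change was 0.27 ± 0.37 (SE, adjusted p = 0.66) with all libraries and −0.37 ± 0.087 (SE, adjusted p = 0.00499) without siPAIP1 replicate 3.

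LAMC1, the gamma chain of most laminins, had 130, 122 and 162 CPM in siPAIP1, against 155, 173 and 165 CPM in Ctrl. LAMC1 was lower in siPAIP1 replicates 1 and 2 than in any Ctrl library, while siPAIP1 replicate 3 lay within the Ctrl range. The log2 fold change was −0.25 ± 0.11 (SE, adjusted p = 0.196), and −0.38 ± 0.07 (SE, adjusted p = 0.000876) without that library. LAMC3, a gamma chain with a narrower distribution, had 23.5, 25.9 and 44.8 CPM in siPAIP1, against 24.7, 31.2 and 27.8 CPM in Ctrl. For LAMC3 the log2 fold change was 0.17 ± 0.24 (SE, adjusted p = 0.669), and −0.18 ± 0.093 (SE, adjusted p = 0.179) without siPAIP1 replicate 3.

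Ratios of chains within a library do not depend on the scaling between libraries. The ratio of LAMB1 to LAMC1 FPKM was 1.80, 1.96 and 2.40 in siPAIP1 and 1.46, 1.42 and 1.37 in Ctrl. It was higher in all 3 siPAIP1 libraries than in any Ctrl library. The ratio of LAMA5 to LAMC1 was 0.812, 0.888 and 2.15 in siPAIP1 and 0.789, 1.07 and 0.900 in Ctrl, with overlap. These pairs were chosen after their values were seen, and no test was made of them.

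**Figure D4:**
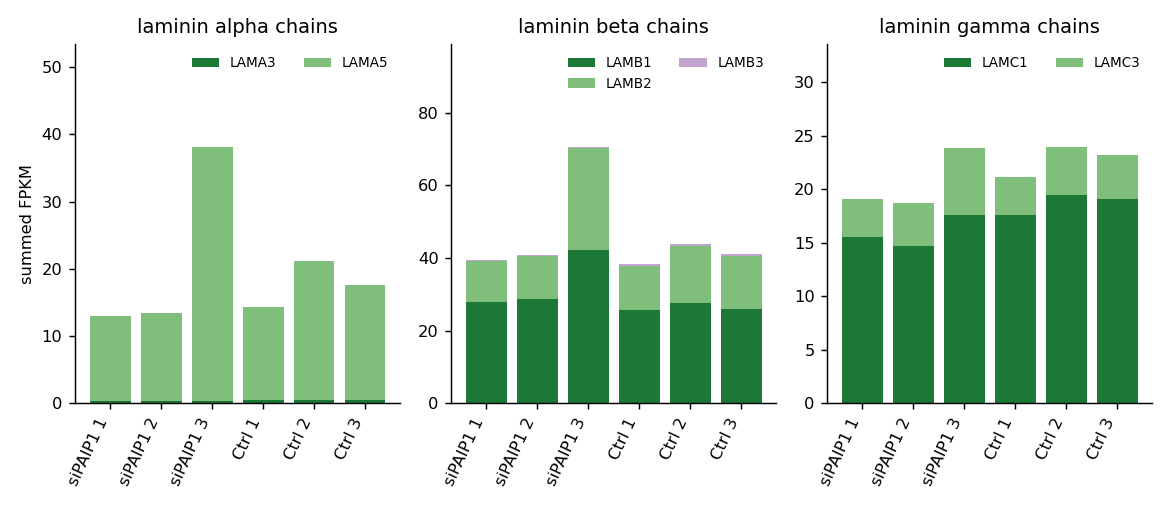
Summed FPKM of the laminin alpha, beta and gamma chains in each library, siPAIP1 left of Ctrl, with each bar stacked by chain and only the tested chains drawn. The alpha-chain sum reaches 38.2 FPKM in siPAIP1 replicate 3 and at most 13.4 FPKM in the other siPAIP1 libraries, against 14.4 to 21.2 FPKM in Ctrl, and LAMA5 accounts for nearly all of it.

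Leaving out siPAIP1 replicate 3 changed the count of called members more than leaving out any other library. Without it 12 of the 22 members were called (54.5%), 4 higher and 8 lower, where 24.2% of all genes tested were called, 11.8% higher and 12.4% lower. The 4 higher members were ITGA10, ITGA3, ITGA6 and ITGAV. The 8 lower ones were ITGAL, ITGAE and ITGA2 among the integrins and LAMA3, LAMA5, LAMB2, LAMB3 and LAMC1 among the laminins. Thus 5 of the 7 tested laminin genes were called lower in that setting, and 1 of them, LAMA3, with all 6 libraries. That library was set apart in part because LAMA5, LAMB2 and ITGB4 were high in it. It was also above the mean of siPAIP1 replicates 1 and 2 for LAMB3 (1.70-fold), LAMC1 (1.28-fold) and LAMA3 (1.14-fold). Leaving it out therefore lowers the siPAIP1 means of all 5 laminin genes called lower. Their calls in that setting are not independent of that choice. Leaving out siPAIP1 replicate 2 or any Ctrl library instead left ITGAL as the 1 called member, and leaving out siPAIP1 replicate 1 gave 4 calls, ITGA10 and ITGA3 higher and ITGAL and ITGAE lower, without LAMA3. Fewer of all genes were called in these settings too. The shares were 3.57% higher and 4.05% lower without siPAIP1 replicate 1, and 1.85% and 2.2% without siPAIP1 replicate 2. Leaving out a Ctrl library gave 1.17% to 1.68% higher and 1.68% to 2.63% lower.

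The 3 members over 2-fold high in siPAIP1 replicate 3 are rich in G and C, but not every GC-rich member was high. The log2 ratio of this library to the mean of siPAIP1 replicates 1 and 2 was 1.70 for LAMA5, whose longest annotated transcript is 66.4% GC, 1.43 for LAMB2 (60.3% GC) and 1.19 for ITGB4 (63.6% GC). It was −0.11 for ITGA2B (60.8% GC), −0.32 for ITGAE (54.6% GC), −0.22 for ITGB1 (39.2% GC) and −0.089 for ITGAV (33.5% GC). Across the 22 tested members Pearson's r of this log2 ratio with GC content was 0.67 and Spearman's rho 0.65, where all points share the same 3 libraries. Across 15323 tested genes r was 0.27, and the median log2 ratio in 5 equal groups of genes by GC content was −0.17, −0.10, −0.011, 0.084 and 0.22 in order of increasing GC. The 9 members in the group with the highest GC had a median of 0.86. Beside LAMA5, LAMB2, ITGB4 and ITGA2B they were ITGA3 (0.95), LAMC3 (0.86), LAMB3 (0.76), ITGB7 (0.47) and ITGB2 (0.29), so ITGA2B alone was below 0. In the group with the next highest GC, ITGA5 (0.73), ITGA10 (0.57), ITGAL (0.34) and ITGB5 (0.12) were above 0 and ITGAE alone was below. The part of GC content in these differences was not tested beyond a fit with its trend removed. In that fit ITGA10, ITGA3 and ITGA6 were called higher and ITGAL, ITGAE and LAMA3 lower, beside 6.24% and 7.69% of all genes. LAMA5, LAMB2 and ITGB4 were not called in it, with log2 fold changes of 0.11 ± 0.38, 0.16 ± 0.32 and 0.43 ± 0.26 (SE).

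**Figure D5:**
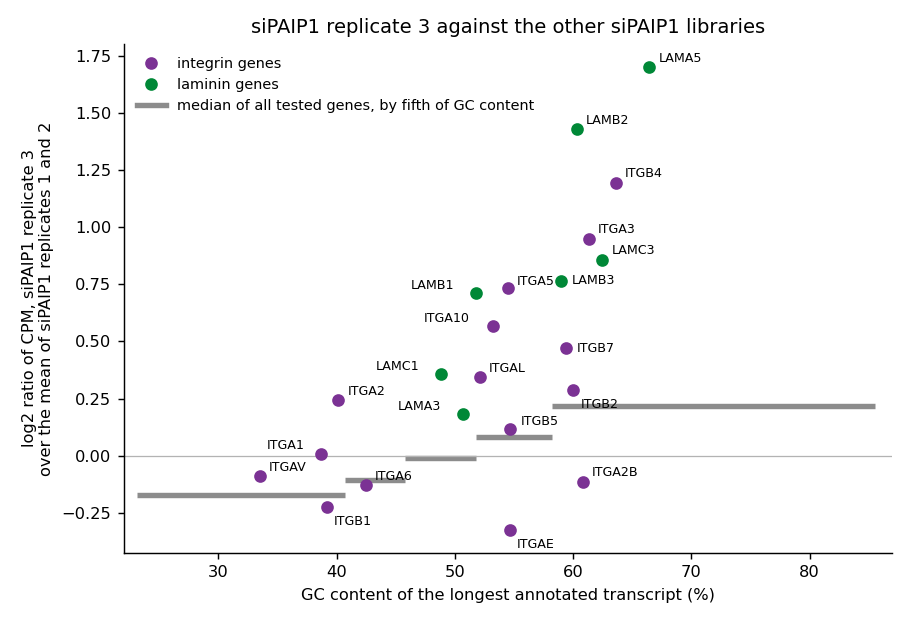
Log2 ratio of CPM in siPAIP1 replicate 3 over the mean of siPAIP1 replicates 1 and 2, against the GC content (%) of the longest annotated transcript, for the 22 tested members, with grey bars for the median of all tested genes in each of 5 groups by GC content. LAMA5, LAMB2 and ITGB4 lie highest, at 1.70, 1.43 and 1.19, and the grey bars run from −0.17 to 0.22.

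The other genes of the pathway were taken from 6 lists, chosen with earlier results of these data known. The lists held 146 genes in all, of which 136 were in the table and 120 tested. Of these, 9 were called higher (7.5%) and 20 lower (16.7%) in siPAIP1, beside 5.68% and 6.2% of all genes, and their median log2 fold change was 0.04 beside 0.03. With siPAIP1 replicate 3 left out, 21 were called higher and 34 lower, where 11.8% and 12.4% of all genes were.

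Inside the cell, integrins are switched on by talin and kindlin and signal through adaptors and kinases such as FAK. Of 42 tested genes of this kind, 2 were called higher (4.76%) and 6 lower (14.3%), beside 5.68% and 6.2% of all genes (median log2 fold change 0.12). The paxillin relative TGFB1I1 rose, with 25.5, 26.7 and 24.6 CPM in siPAIP1 against 12.9, 12.7 and 14.7 CPM in Ctrl (log2 fold change 0.93 ± 0.088, SE, adjusted p = 0.00192). LIMS2, a partner of integrin-linked kinase, rose too, with 16.0, 19.8 and 17.7 CPM in siPAIP1 against 11.3, 11.0 and 12.4 CPM in Ctrl. The adaptor CRKL fell to 53.8, 52.0 and 51.1 CPM in siPAIP1, against 73.6, 76.1 and 71.8 CPM in Ctrl. NEDD9, a scaffold of the Cas family, fell to 62.3, 58.3 and 57.8 CPM in siPAIP1, against 82.9, 89.4 and 78.5 CPM in Ctrl. These 4 are given because they had the lowest adjusted p of their list.

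Of 14 tested basement membrane partners of laminin, 1 was called higher (7.14%) and 2 lower (14.3%), beside 5.68% and 6.2% of all genes (median log2 fold change 0.02). NTN4, a netrin that binds laminin, rose, with 13.6, 13.6 and 11.9 CPM in siPAIP1 against 8.50, 7.99 and 8.43 CPM in Ctrl. NID1, the nidogen that links laminin to collagen IV, fell to 48.3, 44.3 and 54.8 CPM in siPAIP1, against 72.6, 90.9 and 63.1 CPM in Ctrl (log2 fold change −0.62 ± 0.14, SE, adjusted p = 0.0345). The collagen IV chain COL4A2 fell to 3.12, 3.75 and 3.28 CPM in siPAIP1, against 4.55, 5.37 and 5.18 CPM in Ctrl. When siPAIP1 replicate 3 was left out, 9 of these 14 genes were called lower and 1 higher, where 12.4% of all genes were lower and 11.8% higher.

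Of 21 tested ligands of integrins other than laminin, 2 were called higher (9.52%) and 5 lower (23.8%), beside 5.68% and 6.2% of all genes (median log2 fold change −0.10). VTN, the vitronectin bound by ITGAV integrins, fell to 72.2, 67.3 and 59.4 CPM in siPAIP1, against 104, 96.4 and 111 CPM in Ctrl (log2 fold change −0.64 ± 0.095, SE, adjusted p = 0.00766). CDH1, the E-cadherin bound by ITGAE with ITGB7, fell to 57.1, 59.4 and 68.0 CPM in siPAIP1, against 90.1, 97.2 and 88.6 CPM in Ctrl. The matricellular protein gene listed as CTGF, now CCN2, fell to 80.4, 76.2 and 66.4 CPM in siPAIP1, against 102, 114 and 103 CPM in Ctrl. The adhesion molecule L1CAM rose, with 34.5, 38.6 and 61.9 CPM in siPAIP1 against 19.1, 19.7 and 20.0 CPM in Ctrl (log2 fold change 1.20 ± 0.21, SE, adjusted p = 0.013).

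Laminin is also held by dystroglycan, whose sugar chains bind it, and by BCAM, a receptor of LAMA5. Of 13 tested genes of this kind, 2 were called higher (15.4%) and 2 lower (15.4%), beside 5.68% and 6.2% of all genes (median log2 fold change 0.005). The enzyme POMGNT1, which helps to build those sugar chains, rose by 0.46 on the log2 scale (SE 0.066), while B4GAT1, another enzyme of that pathway, changed by −0.53 ± 0.095 (SE). BCAM fell to 77.2, 72.7 and 82.0 CPM in siPAIP1, against 92.1, 115 and 97.7 CPM in Ctrl (log2 fold change −0.39 ± 0.10, SE, adjusted p = 0.0453).

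Among 15 tested membrane partners and hemidesmosome genes, CD151 and ADAM15 were called higher and SLC3A2 lower (median log2 fold change 0.09). These are 13.3% higher and 6.67% lower, beside 5.68% and 6.2% of all genes. The tetraspanin CD151, which binds ITGA3 and ITGA6 integrins, had 206, 215 and 202 CPM in siPAIP1, against 164, 149 and 182 CPM in Ctrl (log2 fold change 0.33 ± 0.088, SE, adjusted p = 0.0495). ADAM15, a membrane protein with an integrin-binding disintegrin domain, had a log2 fold change of 0.51 ± 0.078 (SE, adjusted p = 0.00877). SLC3A2, the amino acid transporter subunit that binds integrin beta tails, fell to 218, 213 and 199 CPM in siPAIP1, against 318, 304 and 342 CPM in Ctrl (log2 fold change −0.61 ± 0.078, SE, adjusted p = 0.00505).

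Of 15 tested genes for the folding, cleavage and traffic of integrins, 4 were called, each of them lower (26.7%, median log2 fold change −0.15). Of all genes 6.2% were called lower and 5.68% higher in the same fit. The 4 called genes encode Rab GTPases, or an effector of one, that act in the endosomal traffic of integrins. Not all Rab genes of the list were called, as RAB4A and RAB11A were tested and did not pass. RAB11FIP1, an effector of recycling, fell to 11.4, 11.5 and 14.8 CPM in siPAIP1, against 28.7, 29.8 and 30.1 CPM in Ctrl (log2 fold change −1.23 ± 0.11, SE, adjusted p = 0.00188). RAB25, an epithelial Rab11 relative, was scarce and fell to 0.583, 0.343 and 0.199 CPM in siPAIP1, against 1.14, 1.27 and 1.35 CPM in Ctrl. RAB21, which binds integrin alpha tails, fell to 39.7, 37.7 and 40.4 CPM in siPAIP1, against 53.5, 57.0 and 52.8 CPM in Ctrl. RAB11B fell to 75.5, 78.8 and 76.2 CPM in siPAIP1, against 88.7, 98.5 and 95.2 CPM in Ctrl. The same list had 1 gene called higher and 6 lower without siPAIP1 replicate 3, where 11.8% of all genes were higher and 12.4% lower.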

How the data were processed

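RNA-seq was available for 3 siPAIP1 and 3 Ctrl libraries. The authors trimmed reads with FASTX-Toolkit 0.0.13, aligned them to GRCh38 with TopHat2 allowing 4 mismatches, and deposited counts of uniquely mapped fragments per gene and FPKM values made from the uniquely mapped reads, with 2 decimals. What tool counted fragments, with or without strand, and on which annotation is not given in the sources used here. Overlapping genes are therefore uncertain. Total counts were 29313211 to 34659866 per library. The low count of a gene limits its precision.

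Counts were normalized by TMM and filtered by filterByExpr in edgeR 4.0.16 (R 4.3.3), which kept 15528 genes, and siPAIP1 was tested against Ctrl with glmQLFit and glmQLFTest, without a block. P-values were adjusted by Benjamini-Hochberg over these genes, and the standard error was the fitted log2 fold change over the square root of F. Scripts were tested on simulated data. Gene positions and transcript GC content are from GENCODE release 44. Members with an adjusted p under 0.05 or a mean of at least 1 FPKM, and up to 4 genes per pathway list with the lowest adjusted p, are named. The members and lists were chosen with earlier results of these data known. Nothing in the labels says how the replicate cultures were kept apart, so p-values measure the spread between these libraries. Alternatives used DESeq2 1.42.0, limma 3.58.1 on log2(FPKM + 0.1) and log2(FPKM + 1), and other filters and scalings. Leaving out siPAIP1 replicate 3 together with Ctrl replicate 2, and removing a GC trend, were chosen after seeing the data. Figures were drawn with matplotlib 3.10.9. Some genes are not reported here by name, though counts over the members and lists include them.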

Additional observations from a re-analysis of the deposited data

How the results depend on the processing

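The count of integrin and laminin genes called higher was 1. It was 2 with RLE or upper-quartile factors, with no filter on low counts, with a filter of 1 CPM in 3 libraries, with DESeq2, with edgeR's exact test, and with the length trend removed with or without the replicate block. It was 0 by limma on either FPKM scale, 3 with the GC trend removed, 6 without siPAIP1 replicate 3 and Ctrl replicate 2, and 0 to 4 when 1 library was left out. Of all genes 5.68% were called higher in the main fit and 3.27% to 6.92% where the count was 2 with all 6 libraries. The share was 3.22% and 2.96% by limma and 6.24% with the GC trend removed. It was 15.3% without both libraries and 1.17% to 11.8% when 1 library was left out. The count called lower was 3. It was 1 by limma on either FPKM scale and at a fold of at least 2, 5 with the length trend removed, 8 without both libraries, and 1 to 8 when 1 library was left out. Of all genes 6.2% were called lower in the main fit, 2.52% and 2.42% by limma and 1.1% at a fold of at least 2. The share was 7.59% with the length trend removed, 16.5% without both libraries and 1.68% to 12.4% when 1 library was left out. Where the count was 2 with all 6 libraries, the gene added was ITGA3, except with the CPM filter, where it was ITGA6. With the GC trend removed both were added, and without both libraries ITGA3, ITGA6, ITGAV, ITGB1 and ITGB5 were. By limma ITGAL alone was called.

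Of the pathway genes 9 were called higher and 20 lower. At a fold of at least 2 these were 2 and 2, and without siPAIP1 replicate 3 and Ctrl replicate 2 they were 27 and 38. By limma 10 were lower on either FPKM scale. Leaving out 1 library gave 2 to 21 higher and 6 to 34 lower, with the highest numbers without siPAIP1 replicate 3. The shares of all genes in these settings are those given above beside the members. The log2 fold change of PAIP1 was −2.09 to −1.84 when 1 library was left out and stayed called under every alternative run.

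Libraries with the same replicate number did not deviate together (correlations of 0.26, −0.28 and −0.15 over 15528 genes), so the numbers were not taken as pairs. With the replicate block 1 member was called higher and 2 lower, LAMA3 having an adjusted p of 0.0564, and 11 pathway genes were lower. Of all genes 2.36% were called higher and 2.96% lower with the block. With the block and the length trend removed LAMA5 had a log2 fold change of −0.014. When 1 library was left out the log2 fold change was −0.51 to 0.58 for LAMA5, −0.37 to 0.51 for LAMB2 and −0.18 to 0.33 for LAMC3, with the negative values without siPAIP1 replicate 3. Without both libraries they were −0.34, −0.29 and −0.09. The cause was not tested. ITGA10 and ITGAE were called in 2 and LAMA3 in 1 of the 6 settings with 1 library left out. The 14 members at 10 counts or fewer are too shallow to compare.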
